A study of Mus musculus with 8 samples.

Results

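The first day of micromass culture in cells that received a control plasmid was followed on 4 of the 8 arrays of the series, the 2 labelled control day 0 and the 2 labelled control day 1. All arrays carried total RNA of CH310T1/2 cells, the labels' spelling for a mouse mesenchymal line, measured on Affymetrix arrays of the type Mouse Genome 430 2.0. Every culture was electroporated and grown in micromass, a dense spot of cells used as a model of cartilage condensation. The other 4 arrays came from cultures that received Erg-010, an Erg transcript (Erg is an ETS transcription factor), from a plasmid driven by the CMV promoter for the day 0 arrays and by the Col2 promoter for the day 1 arrays. The labels give neither the promoter of the control plasmid nor the hours between the pulse and the harvest. With no culture that was left without a pulse or kept out of micromass, time in micromass and time since electroporation cannot be told apart. The labels leave it unsaid whether a pair of replicate arrays stands for 2 cultures, so the p-values rest on a spread between arrays that may be technical only.

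Mesenchymal cells that are packed at high density change their shape, their contacts and the tension on their actin fibres. Serum response factor (Srf) and its actin-sensing partners drive genes of the contractile machinery, while Yap1 acts with the Tead factors and is held back by the Lats and Stk kinases when cells are crowded. NF-kB factors are kept in the cytoplasm by IkB inhibitors and switch on cytokines together with genes that shut the pathway down again. The comparison describes these and other pathways in control cultures, beyond interferon, cell cycle and cartilage genes.

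Differences are on the log2 scale, day 1 minus day 0, so that 1 unit is a doubling. They come from a limma fit of all 45037 probe sets, with p-values adjusted over all of them and a threshold of 0.05. Each of 20680 symbols was represented by its brightest probe set. Of these symbols 2281 were higher on day 1 (11.0%) and 1915 were lower (9.26%), and a change of at least 2-fold was seen in 1162 and 427 of these. A fit of the 4 control arrays alone, which leaves out the spread between the Erg arrays, called 3091 higher (14.9%) and 2958 lower (14.3%), and 4032 symbols were called in both fits. The control arrays of the 2 days did not overlap for 5646 symbols that were higher on day 1 (27.3%) and for 9807 that were lower (47.4%). The median over all symbols was -0.15, and this shift lay in the dimmer symbols. In 4 equal bins of mean level, from dim to bright, the medians were -0.21, -0.27, 0.085 and 0.013, and after cyclic loess normalization they were -0.052, -0.12, -0.0024 and -0.02.

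**Figure D1:**
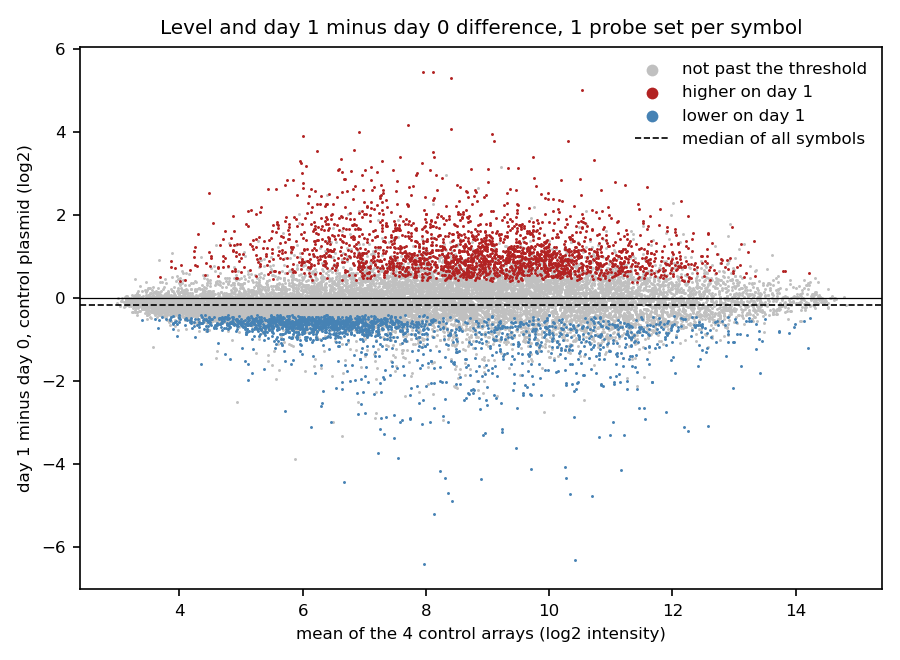
Mean log2 intensity of the 4 control arrays (horizontal axis) against the day 1 minus day 0 difference on the log2 scale (vertical axis), 1 point for each of 20680 symbols, red where higher and blue where lower past the threshold, with a dashed line at the median of all symbols, -0.15. Blue points crowd just below 0 at low levels, where the 2 dimmest of 4 bins have medians of -0.21 and -0.27.

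The calls rest on few arrays. With the 2 arrays of each group, 8922 probe sets passed the threshold, but 812 passed without control day 0 replicate 1 and 366 without control day 0 replicate 2. Leaving out control day 1 replicate 1 or replicate 2 gave 4478 and 2985, either Erg array of day 1 gave 4762, and either Erg array of day 0 gave 16506. The pathway lists hold 756 measured genes, of which 156 passed (80 higher, 76 lower). Without the control arrays named above, in the same order, 20, 12, 55 and 60 of them passed, without either Erg array of day 1 83 did, and without either Erg array of day 0 310 did. Those that passed in all 8 of these fits were Myl9, Myh10, Tead1, Dlc1, Tcf7l2, Egr3, Per2, Bcl2l11 and Aco1, which were higher, and Il6, Slc11a2 and Slc40a1, which were lower. The Erg arrays of day 0 differ from each other more than those of the other groups, the SD of their difference being 0.611 over all probe sets, against 0.260 for control day 0 and 0.335 for control day 1. Counts from the 4 control arrays alone (121 higher and 150 lower over all lists) are therefore given beside those of the full fit for the main lists. In each list for which no such count is given below, at most 1 gene was called without either day 0 control array.

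The 12 steepest rises were in genes of varied kinds. Kctd12, a partner of GABA-B receptors, read 5.08 and 5.37 at first and 10.72 and 10.61 a day later, a rise of 5.44 (SE 0.14, 43.3-fold, adjusted p = 0.000178). Sned1, a secreted matrix protein, read 8.03 on both day 0 arrays and 12.92 and 13.18 on day 1, a rise of 5.02 (SE 0.40, adjusted p = 0.00234). In both genes the arrays of a day lay close together. That the days lay far apart follows from picking the largest rises without overlap. Abi3bp, also a matrix protein, rose by 4.08, the imprinted zinc finger gene Plagl1 by 3.52, the kinase Wnk4 by 3.41, the keratin Krt15 by 3.41 and the membrane protein Tmcc3 by 3.40. Fam107a, an actin-associated stress gene, rose by 5.46 (SE 0.90, adjusted p = 0.0113), Angptl1, a secreted angiopoietin-like protein, by 5.31 (SE 0.77) and Pip by 4.17 (SE 0.67). These 3 lost the call in at least 1 fit without an array (highest adjusted p = 0.0929, 0.0731 and 0.0853), as did Abi3bp and Tmcc3 (0.0517 and 0.0635), and the other probe sets of Angptl1 and Pip gave as little as 0.11 and -0.13. Other probe sets of Plagl1 and Tmcc3 gave as little as 0.36 and 0.24. Myl9 and Egr3 complete the 12 and are described with their pathways.

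Among the 12 steepest falls, 8 were interferon-induced genes, Ifi44, Cxcl10, Zbp1, Ifit1, Pyhin1, Ifi27l2a, Cxcl11 and Rtp4, which fell by 6.41, 5.19, 4.87, 4.72, 4.42, 4.33, 4.17 and 4.14. The other 4 were the cytokine Il6, the chemokine Ccl7, the transcription factor Mycn and the joint lubricant Prg4. Ccl7, which attracts monocytes, read 13.08 and 13.05, then 7.81 and 8.82 (adjusted p = 0.00191). Mycn read 10.96 and 11.19, then 6.85 and 6.59, a fall of 20.5-fold (SE 0.45 on the log2 scale, adjusted p = 0.00386), while its other probe sets reached only -0.22. Prg4 read 10.37 and 10.58, then 6.22 and 6.09 (adjusted p = 0.00191). In all 4 the 2 days were separated by several log2 units, which follows from picking the largest falls without overlap. Without 1 array Mycn, Pyhin1 and Cxcl11 lost the call (highest adjusted p = 0.0545, 0.114 and 0.152), and the other 9 falls kept it.

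Many genes of the actin and myosin machinery rose. Of 28 measured members of the contractile and Srf list, 10 rose (35.7%, against 11.0% of all symbols) and 1 fell, with a median of 0.71 against -0.15 for all symbols. In the 4 control arrays alone 16 rose and 1 fell, and without either day 0 control array 2 were called. The days did not overlap for 20 of the 28 members that were higher on day 1 and 2 that were lower, against 27.3% and 47.4% of all symbols. Myl9, the regulatory myosin light chain of smooth muscle, read 8.32 and 8.50, then 12.48 and 11.91, a rise of 3.79 (SE 0.33, 13.9-fold, adjusted p = 0.00266). Myh10, the heavy chain of non-muscle myosin IIB, read 10.35 and 10.27, then 12.74 and 12.40, a rise of 2.26 (SE 0.21, adjusted p = 0.00283). Vcl (vinculin), which ties actin to adhesion sites, read 11.22 and 11.20, then 13.15 and 12.62, a rise of 1.68 (SE 0.20, adjusted p = 0.00501). The other probe set of Vcl read -0.44. In each of these genes both day 1 arrays stood above both day 0 arrays, and day 1 replicate 1 was the higher of its pair. That order held for 25 of the 28 members, with a median gap of 0.43 between the day 1 arrays, against 0.06 over all symbols.

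By role, 3 of 6 thick filament and light chain genes rose, the third being Myh9 at 0.82 (adjusted p = 0.0267). Of 7 smooth muscle actins and actin regulators 2 rose: the actin-binding protein Tagln read 8.60 and 8.59, then 11.13 and 10.39 (adjusted p = 0.0331), and the enteric actin Actg2 read 6.90 and 6.95, then 10.15 and 8.51 (adjusted p = 0.0486). Acta2, the smooth muscle actin often used to mark contractile fibroblasts, read 12.44 and 12.57, then 14.02 and 13.62, and missed the threshold (adjusted p = 0.0552). Among 8 focal adhesion adaptors the actin crosslinkers Flna and Actn1 and the adaptor Tgfb1i1 rose beside Vcl, by 1.20, 0.76 and 0.97, and Fhl2, a LIM-only protein, fell by 1.09 (SE 0.16, adjusted p = 0.00895). The tropomyosin Tpm2 rose by 0.83. None of the 4 transcriptional regulators passed the test: Srf itself read 8.77 and 8.33, then 9.30 and 9.14 (difference 0.67, adjusted p = 0.0549). Of 10 skeletal muscle markers 0 rose and 1 (Mylpf) fell, and Myod1 and Myog stayed between 5.26 and 6.40 on every control array.

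The CArG box, the sequence that Srf binds, lay in 7 of 31 RefSeq promoters (22.6%), which belong to 24 genes of this list. It lay in 1.63% of all 32851 promoters of the same length, searched on both strands. The promoters of Myl9 and Vcl show it in capitals, with its first base at -161 and -227 from the annotated start, and are printed because Myl9 has the largest rise of the list and Vcl the smallest adjusted p after Myl9 and Myh10. Each runs from 250 bases before the start to 50 after it, on the plus strand of GRCm38.p6, at chr2:156775214-156775513 for Myl9 and chr14:20929148-20929447 for Vcl. Of the 10 members that rose, 7 had a promoter to search, and 2 of these promoters held the box. Tagln and Actg2 were among those with no promoter to search. Both promoters of Fhl2, which fell, held the box as well. Genes were listed by textbook membership, so the share of a motif in a list, here and below, does not bear on the day step.
Myl9: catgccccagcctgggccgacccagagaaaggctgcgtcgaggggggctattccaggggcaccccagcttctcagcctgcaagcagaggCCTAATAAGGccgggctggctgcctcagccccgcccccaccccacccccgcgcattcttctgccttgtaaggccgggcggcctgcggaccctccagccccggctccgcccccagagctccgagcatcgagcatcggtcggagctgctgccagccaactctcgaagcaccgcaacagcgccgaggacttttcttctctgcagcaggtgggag
Vcl: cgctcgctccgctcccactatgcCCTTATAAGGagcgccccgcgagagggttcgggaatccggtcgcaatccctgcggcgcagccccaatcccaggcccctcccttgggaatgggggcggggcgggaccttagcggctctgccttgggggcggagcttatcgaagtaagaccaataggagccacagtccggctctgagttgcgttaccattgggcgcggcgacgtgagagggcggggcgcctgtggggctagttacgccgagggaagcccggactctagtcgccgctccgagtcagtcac

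**Figure D2:**
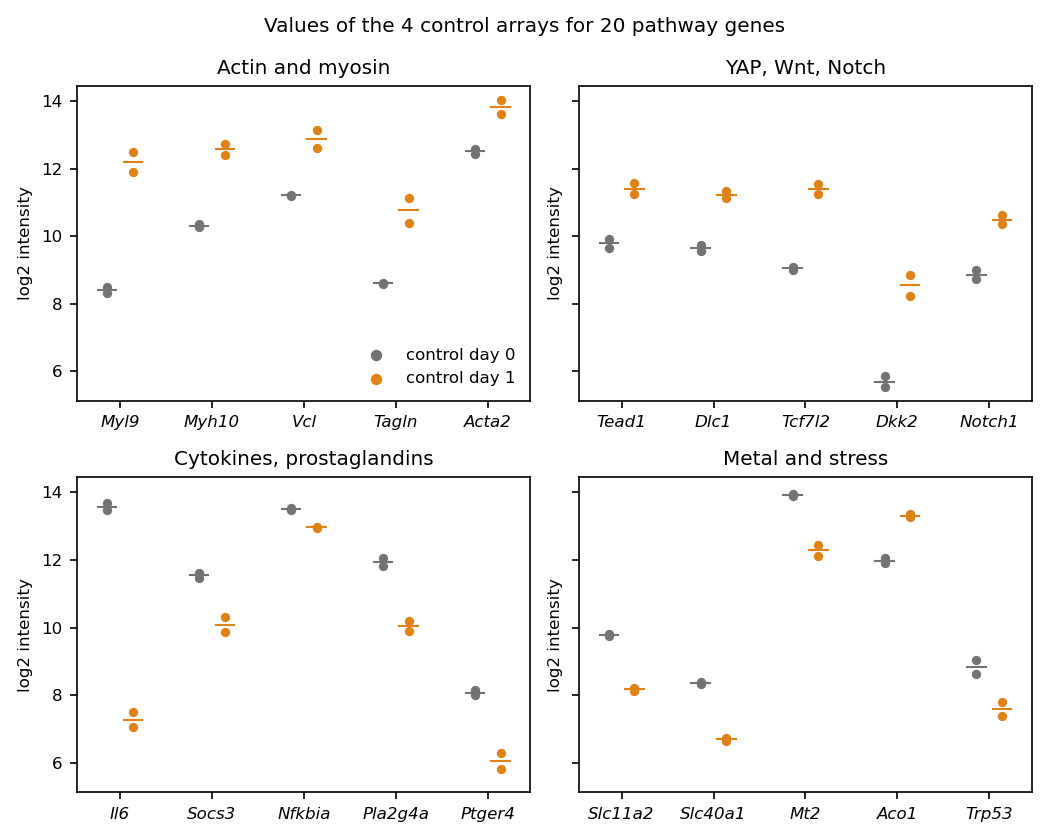
Log2 intensity (vertical axis) on the 4 control arrays for 20 pathway genes, grey points for the 2 day 0 arrays and orange for the 2 day 1 arrays, with a bar at each mean. The genes are a hand-picked selection from the pathway lists. The points of the 2 days do not overlap for any of them, as for 27.3% (higher) and 47.4% (lower) of all symbols. Myl9 moves from 8.32 and 8.50 to 12.48 and 11.91, and Il6 from 13.47 and 13.70 to 7.04 and 7.50.

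Of 24 genes of the Yap1 and Tead pathway, 6 rose (25%, against 11.0% of all symbols) and 1 fell (4.17%, against 9.26%), with a median of 0.30 (7 and 1 in the 4 control arrays alone, 2 calls without either day 0 control array). Of the components of the pathway 5 of 11 rose. Tead1, a DNA-binding partner of Yap1, read 9.92 and 9.65, then 11.56 and 11.25 (difference 1.62, SE 0.16, adjusted p = 0.00345). Yap1 read 11.10 and 11.11, then 11.72 on both day 1 arrays, and rose by 0.62 (adjusted p = 0.0155), although its other probe set read -0.59. The inhibitory kinases Lats1 and Stk4 rose too, by 0.60 and 0.58, as did Tead2 by 0.69. Among intracellular targets Dlc1, a GTPase-activating protein, rose by 1.59 (SE 0.13, adjusted p = 0.00257) and the kinase Nuak2 fell by 1.13. The 5 secreted targets went both ways and none passed. Ctgf, Cyr61 and Edn1 gave -0.11, -0.32 and -0.41 (adjusted p = 0.773, 0.555 and 0.115), and F3 and Thbs1 gave 0.35 and 0.59 (adjusted p = 0.222 and 0.414). Of the 6 members that rose, 4 had a promoter to search. The core Tead letters GGAATG, on either strand, occurred in 1 of these 4 promoters (25%). They lay in 14 of 20 promoters of this list (70.0%) and in 14.7% of all promoters. They also occur in the promoter of Kctd12, shown in capitals as their reverse complement with its first base at -151 from the start (GRCm38.p6, chr14:102982588-102982887, minus strand). That promoter is printed because Kctd12 rose the most among the named genes that passed with any array left out, and Kctd12 is not a member of the list.
Kctd12: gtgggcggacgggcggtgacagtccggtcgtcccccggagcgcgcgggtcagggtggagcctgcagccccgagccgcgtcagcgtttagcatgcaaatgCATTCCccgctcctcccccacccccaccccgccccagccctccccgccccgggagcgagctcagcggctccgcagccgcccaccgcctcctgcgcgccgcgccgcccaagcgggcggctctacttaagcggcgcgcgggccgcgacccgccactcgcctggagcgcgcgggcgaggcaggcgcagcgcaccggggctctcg

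Wnt signalling genes moved in both directions, with 5 of 20 higher (25%, against 11.0% of all symbols) and 2 lower (10.0%, against 9.26%; 6 and 5 in the 4 control arrays, 2 and 1 calls in all without control day 0 replicate 1 and 2). Of the 4 nuclear partners of beta-catenin 3 rose. Tcf7l2 read 9.00 and 9.08, then 11.53 and 11.24 (difference 2.35, SE 0.20, adjusted p = 0.00266), Tcf7l1 rose by 1.71 (adjusted p = 0.00355) and Tcf7 by 1.01. The other one, Lef1, gave -0.20 (adjusted p = 0.279), with both day 1 arrays below both day 0 arrays. The secreted modulator Dkk2 read 5.54 and 5.84, then 8.23 and 8.84 (difference 2.85, SE 0.36, adjusted p = 0.00577), and the Wnt-binding inhibitor Wif1 rose by 1.28. Wisp1, a target gene, fell by 1.31 and the receptor Lgr5 by 0.61, while the feedback gene Axin2, a common readout of Wnt activity, gave -0.11 (adjusted p = 0.587).

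In the Notch list 3 of 19 genes rose (15.8%, against 11.0%) and 2 fell (10.5%, against 9.26%; 6 and 3 in the 4 control arrays). The receptor Notch1 read 8.99 and 8.72, then 10.61 and 10.35 (difference 1.62, SE 0.18, adjusted p = 0.0047). Its target genes split: Hey1 and Hey2 rose by 0.97 and 1.30, whereas Hes5 fell by 0.85 (SE 0.14, adjusted p = 0.0111) and the ligand Dll4 by 0.56. The median of 0.24 became -0.055 when all probe sets of a symbol were averaged.

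Of 28 genes of TGF-beta signalling, 5 rose (17.9%, against 11.0% of all symbols) and 1 fell, with a median of 0.08. That median became -0.01 when all probe sets of a symbol were averaged. In the 4 control arrays alone 9 rose and 6 fell, and 1 and 0 were called without control day 0 replicate 1 and 2. Ltbp1 and Ltbp3, which hold latent TGF-beta in the matrix, rose by 1.51 (SE 0.18, adjusted p = 0.00504) and 1.34 (SE 0.25, adjusted p = 0.0168). The receptor Tgfbr2 read 11.28 and 11.35, then 12.79 and 12.47 (difference 1.31, SE 0.23, adjusted p = 0.0133). Its probe sets lay between -0.30 and 1.31. Among feedback inhibitors Smad6 rose by 0.97 and Skil fell by 0.77. Of 8 target genes only Timp3, an inhibitor of matrix proteases, passed, with a rise of 0.60. Tgfbi, a frequent readout of the pathway, gave -1.43 (adjusted p = 0.132).

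The machinery of collagen assembly gave few calls, at shares below the 11.0% of all symbols that rose and the 9.26% that fell. Of 36 genes, 3 rose (8.33%) and 1 fell (2.78%), the median was -0.01, and 0 of 6 fibrillar chains passed (7 higher and 4 lower in the 4 control arrays, 0 calls without either day 0 control array). Col1a2, a chain of type I collagen, read 14.18 and 14.29, then 14.50 and 14.29, and Col3a1, of type III, 14.19 and 14.32, then 14.40 and 14.35, so that the days lay close together. Col15a1, a chain of basement membrane zones, rose by 2.62 (SE 0.37, adjusted p = 0.00764), the crosslinking enzyme Loxl1 by 1.35 (SE 0.22, adjusted p = 0.0111) and Col6a3 by 0.71. Loxl3, another crosslinking enzyme, fell by 0.75, and none of the 11 folding and hydroxylation enzymes passed, P4ha3 being the nearest at -1.53 (adjusted p = 0.055).

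**Figure D3:**
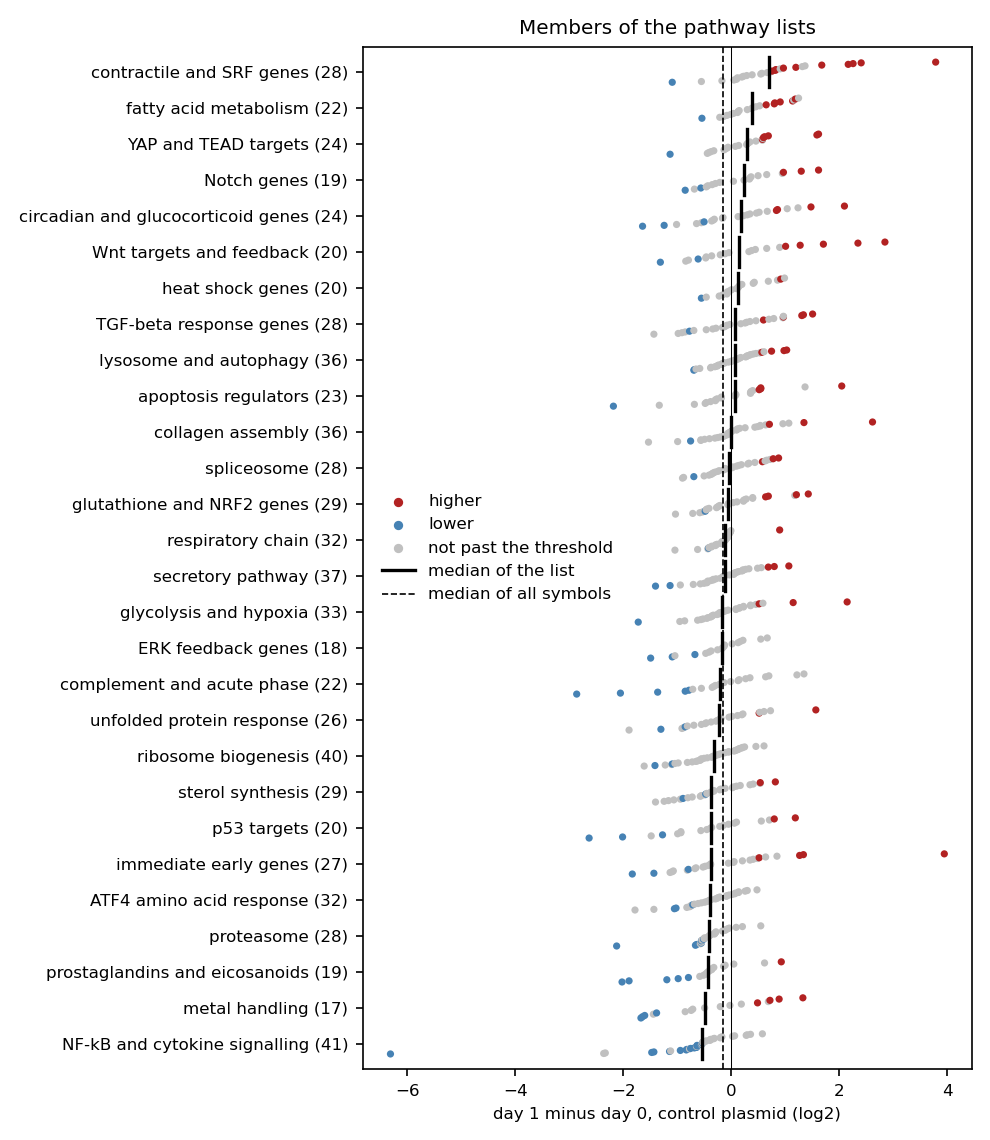
Day 1 minus day 0 differences on the log2 scale (horizontal axis) for the members of 28 pathway lists, 1 row per list with the number measured in brackets, ordered by median (black bars), red where higher and blue where lower past the threshold, grey otherwise. The contractile and Srf list lies farthest right, with a median of 0.71, and the NF-kB and cytokine list farthest left, at -0.54, against -0.15 for all symbols (dashed line).

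Many genes of NF-kB and cytokine signalling fell. Of 41 members 15 fell (36.6%, against 9.26% of all symbols) and 0 rose, with a median of -0.54, and 35 had a negative difference. The 4 control arrays alone gave 22 lower and 1 higher, and 1 was called without either day 0 control array. For 34 members both day 1 arrays lay below both day 0 arrays, a relation that 47.4% of all symbols shared. Il6, an inflammatory cytokine, read 13.47 and 13.70, then 7.04 and 7.50. Il6 thus fell by 6.31 (SE 0.30, adjusted p = 0.000675), a 79.4-fold fall.

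Its promoter holds the NF-kB pattern searched here, GGG and CC separated by any 5 bases, on either strand. It is printed with its 3 matches in capitals, their first bases at -85, -44 and -43 from the start and the last 2 of them overlapping (GRCm38.p6, chr5:30012864-30013163, plus strand). This loose pattern lies in 29 of 40 promoters of the list (72.5%) and in 50.8% of all promoters. The AP-1 letters TGANTCA lie in 22.5% and 7.81%.
Il6: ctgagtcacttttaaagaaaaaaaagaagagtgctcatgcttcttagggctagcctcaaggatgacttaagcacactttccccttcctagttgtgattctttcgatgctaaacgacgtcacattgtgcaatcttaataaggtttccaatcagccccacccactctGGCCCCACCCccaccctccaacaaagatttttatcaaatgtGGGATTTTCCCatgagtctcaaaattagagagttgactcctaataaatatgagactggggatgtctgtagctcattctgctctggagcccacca

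Of 14 NF-kB subunits and inhibitors 7 fell. They were the subunits Rel and Relb, by 0.82 and 0.63, the IkB proteins Nfkbia, Nfkbib, Nfkbie and Nfkbiz, by 0.55, 0.63, 0.75 and 1.14, and the editing enzyme Tnfaip3, which ends the signal, by 0.64. Nfkbia was the brightest of them, at 13.49 and 13.54, then 12.99 and 12.94 (adjusted p = 0.033). The subunits Rela and Nfkb1 did not pass, at 0.30 (adjusted p = 0.373) and 0.066 (adjusted p = 0.813). Among 11 ligands Csf3, Lif and Il34 fell beside Il6, by 0.83, 0.53 and 0.68, from day 0 levels of at most 7.61. Il33 read 10.20 and 10.46, then 7.74 and 8.20, but did not pass (adjusted p = 0.0857). Of 10 receptors Tlr2 fell by 1.43 and Tnfrsf1b by 0.94 (SE 0.14, adjusted p = 0.00868). Socs3 and Socs1, which stop cytokine receptors from signalling, fell by 1.47 (SE 0.24, adjusted p = 0.011) and 0.64. Leukocyte markers also read lower on day 1: 2 of 10 fell, Cd68 and Cd53, beside 9.26% of all symbols. Their median was -0.35. Other marker lists had medians of -0.41 (endothelial), -0.36 (epithelial), -0.36 (adipocyte), -0.26 (skeletal muscle), -0.22 (neural and glial) and 0.20 (mesenchymal). The 2 dimmest bins of all symbols had -0.21 and -0.27, so a lower reading was not particular to leukocyte markers. The summed linear intensity of leukocyte markers was 1174 and 2047 on the day 0 arrays, then 809 and 778 on day 1. In that sum the brightest marker weighs most (highest mean 9.63 on day 0 and 8.17 on day 1). Ptprc, which defines leukocytes, read 4.73 and 4.51, then 4.32 on both. The part of such cells in these changes was not tested, and in bulk RNA fewer cells of a type and less RNA per cell cannot be told apart.

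Of 19 prostaglandin genes 5 fell (26.3%, against 9.26% of all symbols) and 1 rose, with a median of -0.43 (5 and 2 in the 4 control arrays, 0 calls without either day 0 control array). Pla2g4a, the phospholipase that frees arachidonic acid, read 11.82 and 12.05, then 10.20 and 9.90 (difference -1.89, SE 0.27, adjusted p = 0.00791). The synthases Ptges and Ptges2 fell by 0.79 and 1.19, the transporter Slco2a1 by 0.98 and the receptor Ptger4 by 2.02 (SE 0.47, adjusted p = 0.0289). The cyclooxygenases diverged. Ptgs1, the constitutive form, rose from 9.84 and 9.87 to 11.02 and 10.56 (adjusted p = 0.025), while Ptgs2, the inducible form, read 11.56 and 11.13, then 11.46 and 10.08, with overlapping days (adjusted p = 0.625).

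In the complement and acute phase list 5 of 22 genes fell (22.7%, against 9.26%) and 0 rose (6 and 3 in the 4 control arrays, 0 calls with any control array left out). Cfd, an alternative pathway protease also known as adipsin, read 8.64 and 8.92, then 5.98 and 5.86 (difference -2.86, SE 0.51, adjusted p = 0.0137). Its substrate partner Cfb fell by 2.05, the acute phase protein Orm1 by 1.36, the lectin pathway protease Masp1 by 0.85 and the inhibitor Cr1l by 0.78, though the other probe sets of Cr1l reached 1.33. The central component C3 gave 0.15 (adjusted p = 0.911), and C4b read 9.58 and 9.79, then 10.60 and 11.47 (adjusted p = 0.0943).

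Immediate early genes, which respond within minutes to growth factors and stress, gave calls both ways. Of 27 genes 4 rose and 3 fell, shares of 14.8% and 11.1% that lie near those of all symbols, 11.0% and 9.26% (4 and 6 in the 4 control arrays, 2 and 1 calls without control day 0 replicate 1 and 2). Egr3 read 7.15 and 7.03, then 11.07 and 11.01, a rise of 3.95 (SE 0.12, 15.4-fold, adjusted p = 0.000194), although its other probe set read -0.79. Egr1 rose by 1.27 (SE 0.20, adjusted p = 0.00964), and the orphan receptors Nr4a1 and Nr4a2 by 1.34 and 0.52. The AP-1 subunit Junb fell from 9.74 and 9.99 to 8.32 and 7.76 (difference -1.83, SE 0.31, adjusted p = 0.0123), Ier2 fell by 1.43 and Nr4a3 by 0.79. Fos gave -0.38 (adjusted p = 0.739) and Jun -0.05 (adjusted p = 0.89). Of 18 genes that feed back on ERK signalling 3 fell (16.7%, against 9.26% of all symbols) and 0 rose. All 3 were phosphatases: Dusp6, which acts on ERK, fell by 1.49 (SE 0.37, adjusted p = 0.0347), Dusp1 by 1.09 and Dusp8 by 0.67. Without either day 0 control array or control day 1 replicate 2 none of them passed, and without control day 1 replicate 1 a single one did. None of the 6 adaptor inhibitors and 4 genes listed as transcription factors (Etv1, Etv4, Etv5 and Phlda1) passed, the nearest being Spry4 at -0.41 (adjusted p = 0.121) and the ETS factor Etv4 at -0.13 (adjusted p = 0.415).

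Metal handling changed in both directions, with 4 of 17 genes higher and 4 lower (23.5% each, against 11.0% and 9.26% of all symbols), and it kept more calls than any other list without day 0 control arrays, 4 without replicate 1 and 3 without replicate 2. The iron importer Slc11a2 read 9.81 and 9.75, then 8.22 and 8.13 (difference -1.60, SE 0.12, adjusted p = 0.00196). The iron exporter Slc40a1 (ferroportin) read 8.33 and 8.39, then 6.73 and 6.65 (difference -1.67, SE 0.13, adjusted p = 0.00226). Aco1, which senses iron and binds iron-responsive RNA elements, rose from 12.05 and 11.92 to 13.35 and 13.27 (difference 1.33, SE 0.12, adjusted p = 0.0027). In all 3 genes, which were picked for their small p, the arrays of a day lay close together and the days apart. The 4 probe sets of Slc11a2 lay between -1.60 and -0.19 and the 3 of Aco1 between 0.075 and 1.65. Its relative Ireb2 and the iron reductase Steap3 rose as well, by 0.49 and 0.89, while the ferritin chains Fth1 and Ftl1 gave -0.02 and 0.19 (adjusted p = 0.918 and 0.305). On the zinc side the metallothionein Mt2 read 13.90 and 13.95, then 12.45 and 12.13 (difference -1.64, adjusted p = 0.00605). The importer Slc39a14 fell by 1.38 (SE 0.14, adjusted p = 0.00394), though its 4 probe sets lay between -1.61 and 0.33. The exporter Slc30a1 rose by 0.72.

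Of 22 genes of fatty acid metabolism 6 rose (27.3%, against 11.0%) and 1 fell, with a median of 0.39 (9 and 1 in the 4 control arrays, 0 calls without either day 0 control array). Among 11 synthesis genes the regulator Srebf1 read 9.20 and 9.06, then 10.02 and 9.85 (difference 0.80, adjusted p = 0.0153), and Fasn, Acly and Elovl5, which build and lengthen the chains, rose by 0.91, 0.65 and 1.14. In the oxidation arm Cpt1a, which admits fatty acids to mitochondria, rose by 0.81, while the dim Ppara fell by 0.54 (adjusted p = 0.0499). Of 29 sterol genes 2 rose and 2 fell (6.9% each, against 11.0% and 9.26% of all symbols), with a median of -0.37. In the 4 control arrays alone 2 rose and 9 fell. Mvd, a mevalonate enzyme, fell by 0.89, whereas Pmvk rose by 0.54 and the sterol sensor Scap by 0.82. Idi1 read 11.11 and 11.42, then 9.94 and 9.80, yet did not pass in the full fit (adjusted p = 0.182), and in the 4 control arrays alone its adjusted p was 0.0035. Its SE of 0.68 in the full fit includes the spread between the Erg arrays of day 0. Srebf2, the main activator of sterol genes, gave -0.32 (adjusted p = 0.613), and the sterol element was found in 0 of 27 promoters of the list and in 0.0913% of all promoters. Adipocyte markers were mixed: Pparg rose from 8.58 and 8.36 to 10.49 and 10.15 (adjusted p = 0.00267) and Plin4 by 1.81, Cd36 fell by 1.20, and Adipoq read 9.40 and 9.81, then 8.54 and 9.74. The median difference of these markers was -0.36, and 5 of the 9 were negative. Their summed linear intensity was 9121 and 10804 on day 0 and 11791 and 17894 on day 1. In it the brightest marker weighs most (highest mean 12.57 on day 0 and 13.10 on day 1). The part of adipocytes in the fatty acid genes was not tested.

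Protein folding and the stress of the endoplasmic reticulum gave calls at shares near or below those of all symbols, 11.0% higher and 9.26% lower. In the unfolded protein response list 7.69% rose and 7.69% fell. Of 26 unfolded protein response genes 2 rose and 2 fell, with a median of -0.23 (3 and 7 in the 4 control arrays, 0 calls without either day 0 control array). The membrane-bound factor Creb3l2 rose by 1.57 (SE 0.26, adjusted p = 0.0116) and the sensor Atf6 by 0.52, while Creb3l1 fell by 0.85 (SE 0.11, adjusted p = 0.00615) and the secreted chaperone Manf by 1.30. Sdf2l1, a luminal cochaperone, read 12.32 and 12.64, then 10.63 and 10.56, with an adjusted p of 0.162 in the full fit and 0.00162 in the 4 control arrays. Xbp1, a central factor of the response, stayed between 12.06 and 12.24 on all 4 arrays (adjusted p = 0.889). Of 32 genes of the Atf4 amino acid response 3 fell and 0 rose (11 and 0 in the 4 control arrays, 0 calls without either day 0 control array). That is 9.38% of the list, near the 9.26% of all symbols that fell. The genes were the tRNA ligase Sars, lower by 1.02 (SE 0.18, adjusted p = 0.0131), the serine synthesis enzyme Phgdh, by 1.05, and Cebpb, by 0.71. Atf4 itself gave -0.55 (adjusted p = 0.221). Among 37 genes of the secretory pathway Sec24a, Sec62 and Mia3 rose, by 1.07, 0.69 and 0.80, and the coat protein Sec13 and the retrieval receptor Kdelr3 fell, by 1.13 (SE 0.13, adjusted p = 0.00501) and 1.40. They made up 8.11% and 5.41% of the list. Of 20 heat shock genes the cochaperone Bag3 rose by 0.92 and Hspb8 fell by 0.55 (5.0% each), and Hspa8 read 13.96 and 13.89, then 13.96 and 13.90.

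Among p53 genes Fas and Gadd45a had the largest differences. Fas, a death receptor, read 12.67 and 12.87, then 9.88 and 10.40 (difference -2.63, SE 0.29, 6.21-fold, adjusted p = 0.00454). Gadd45a, a growth arrest gene, read 11.56 and 11.41, then 9.43 and 9.51 (difference -2.01, SE 0.24, adjusted p = 0.005). Trp53 itself fell from 9.05 and 8.63 to 7.78 and 7.37 (difference -1.27, SE 0.20, adjusted p = 0.00969), with 7 probe sets between -1.27 and 0.051. Of 20 members these 3 fell (15.0%, against 9.26% of all symbols), while Mdm4, an inhibitor of p53, and Trp53inp1 rose, by 1.19 and 0.80. The arrest gene Cdkn1a did not pass, at 0.56 (adjusted p = 0.312). Among 23 apoptosis regulators the BH3-only protein Bcl2l11 (Bim) rose from 8.51 and 8.40 to 10.63 and 10.37 (difference 2.05, SE 0.17, adjusted p = 0.00253), and Casp2, Apaf1 and the survival gene Bcl2l2 rose by 0.55, 0.52 and 0.55. Casp4, an inflammatory caspase, read 11.45 and 11.59, then 8.87 and 9.80 (difference -2.18, SE 0.29, adjusted p = 0.00672). The 5 probe sets of Bcl2l11 lay between -0.24 and 2.05. Of the apoptosis list 17.4% rose and 4.35% fell, against 11.0% and 9.26% of all symbols.

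Of 24 genes of the clock and of the glucocorticoid response 4 rose and 3 fell, shares of 16.7% and 12.5% beside 11.0% and 9.26% of all symbols (7 and 5 in the 4 control arrays, 1 call without either day 0 control array). The period genes rose, Per2 from 6.35 and 6.52 to 7.75 and 8.08 (difference 1.48, SE 0.15, adjusted p = 0.0039) and Per3 by 2.10 (SE 0.28, adjusted p = 0.00695), while the repressor Nr1d2 fell by 0.50. The probe sets of Per3 lay between -0.59 and 2.10. Clock and Arntl, the core activators, gave 0.23 (adjusted p = 0.617) and -0.55 (adjusted p = 0.442). Nr3c1, the glucocorticoid receptor, rose by 0.86 (SE 0.12, adjusted p = 0.00719) and its target Klf9 by 0.84, but the targets Sgk1 and Cebpd fell by 1.24 (SE 0.22, adjusted p = 0.0136) and 1.64.

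Energy metabolism gave few calls among its enzymes, where 11.0% of all symbols rose and 9.26% fell. None of 19 glycolytic enzymes and transporters passed, and 1 of 32 respiratory chain genes rose and 1 fell, both subunits of complex II: Sdha by 0.90 (SE 0.18, adjusted p = 0.0186) and Sdhb by 0.42. Other hypoxia genes went separate ways. Ndrg1 read 10.74 and 10.72, then 13.05 and 12.71 (difference 2.15, SE 0.29, adjusted p = 0.00675), and the carbonic anhydrase Car9 and the oxygen sensor Egln1 rose by 1.15 and 0.52. The peptide hormone Adm fell from 10.90 and 10.79 to 8.93 and 9.31 (difference -1.72, SE 0.20, adjusted p = 0.00496), and Hif1a gave -0.52 (adjusted p = 0.0961). The hypoxia letters ACGTG lay in 51.1% of 47 promoters of the list and in 19.6% of all promoters. Of 29 glutathione and Nrf2 genes catalase (Cat) rose from 11.64 and 11.65 to 12.92 and 12.79 (difference 1.21, SE 0.12, adjusted p = 0.00371), Nfe2l2, which encodes Nrf2, rose by 0.69, its inhibitor Keap1 by 0.64 and Aldh3a1 by 1.43. The thioredoxin Txn1 and Gpx8 fell by 0.47 and 0.48, and the other probe set of Nfe2l2 read -1.10. In this list 13.8% rose and 6.9% fell. Nqo1 and Hmox1, standard Nrf2 targets, gave 0.23 (adjusted p = 0.521) and 0.25 (adjusted p = 0.838), and the Nrf2 letters TGACNNNGC lay in 31.0% of 29 promoters against 12.4% of all. Of 36 lysosome and autophagy genes 11.1% rose and 5.56% fell. The hydrolase Gusb, the membrane protein Scarb2 and the autophagy factor Becn1 rose, by 0.98, 0.75 and 0.57, and Ctsl and Gabarapl2 fell by 0.68 and 0.69. The other probe set of Scarb2 read -0.68.

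Most proteasome subunits read slightly lower on day 1. Of 28 subunits 6 fell (21.4%, against 9.26% of all symbols) and 0 rose. The median was -0.40 against -0.15, and 25 had a negative difference, as did 13023 of all 20680 symbols (11 lower in the 4 control arrays, 0 calls without either day 0 control array). Psmb2, Psmb3, Psmb5, Psma2 and Psmd4 fell by 0.55, 0.64, 0.55, 0.51 and 0.66. Psmb2 read 13.08 on both day 0 arrays and 12.53 on both day 1 arrays (adjusted p = 0.0196). Psmb7 had the largest difference of the list, at 11.81 and 12.04, then 9.94 and 9.67 (difference -2.12, SE 0.29, adjusted p = 0.00686), on a single probe set.

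Ribosome biogenesis genes differed as much between the 2 day 0 arrays as between the days. All 40 read higher on control day 0 replicate 1 than on replicate 2, with a median gap of 0.80, against -0.02 over all symbols. Their median day difference was -0.31, which became -0.74 with replicate 1 as the only day 0 array and -0.008 with replicate 2. Nop56, a core snoRNP protein, read 12.21 and 10.88, then 10.01 and 9.85 (adjusted p = 0.134). Of the 40 only Bop1 and Nhp2 passed, with falls of 1.09 (SE 0.24, adjusted p = 0.0254) and 1.41 (SE 0.39, adjusted p = 0.0467). A smaller gap in the same direction was seen in 25 of 32 Atf4 genes (median 0.32), 17 of 20 p53 genes (0.30) and 26 of 28 spliceosome genes (0.22). In the spliceosome list Sf3b1, Sf3b2 and Hnrnpu rose by 0.58, 0.88 and 0.78, and Hnrnpa1 fell by 0.69, although its probe sets reached 1.89. They made up 10.7% and 3.57% of the list, beside 11.0% and 9.26% of all symbols.

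The label of a mesenchymal cell line was borne out by its markers, which read between 8.39 and 14.64 as day 0 means of 10 genes, with Col1a2, Col3a1, Vim and S100a4 all above 14. Pdgfrb, a receptor of perivascular and fibroblastic cells, was the only one to pass, with a rise of 0.81. On day 0 the list medians of other tissues were 5.83 for endothelial, 6.00 for leukocyte, 6.33 for epithelial and 6.12 for skeletal muscle genes, of which 0 rose. They were higher for adipocyte genes, at 8.47 (4.93 to 12.57, 2 of 9 rose and 1 fell), and for neural and glial genes, at 7.71 (3.45 to 9.43, 1 of 9 rose). In the neural and glial list S100b, which is not restricted to glia, rose from 8.82 and 9.11 to 11.36 and 11.34 (adjusted p = 0.00317). Sox10 of the same list gave -0.22 (adjusted p = 0.353). The files used here hold no detection calls, so whether a dim probe set lies above background is unknown.

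A day step was also measured in the Erg cultures, where the promoter changed with the day, from CMV on day 0 to Col2 on day 1. Day and promoter cannot be told apart in that step. Its difference is taken between other arrays than that of the controls, while the SE and p of both come from the spread over all 8. There 1667 symbols passed (8.06%), and the 2 steps had a Pearson correlation of 0.88 and a Spearman correlation of 0.82 over the 20680 symbols, which are not independent replicates. Of the 4196 symbols called in the controls 4174 had the same sign in the Erg cultures (99.5%, against 84.8% of all symbols). Myl9 rose by 3.66 there, Egr3 by 3.85 and Tead1 by 1.32, and Il6 and Slc11a2 fell by 5.33 and 1.44. The difference between the steps was called for 0 symbols (0%) and 0 probe sets by limma, and 1100 probe sets (2.44%) had an unadjusted p under 0.05. Without Erg day 0 replicate 1, 356 probe sets passed.

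**Figure D4:**
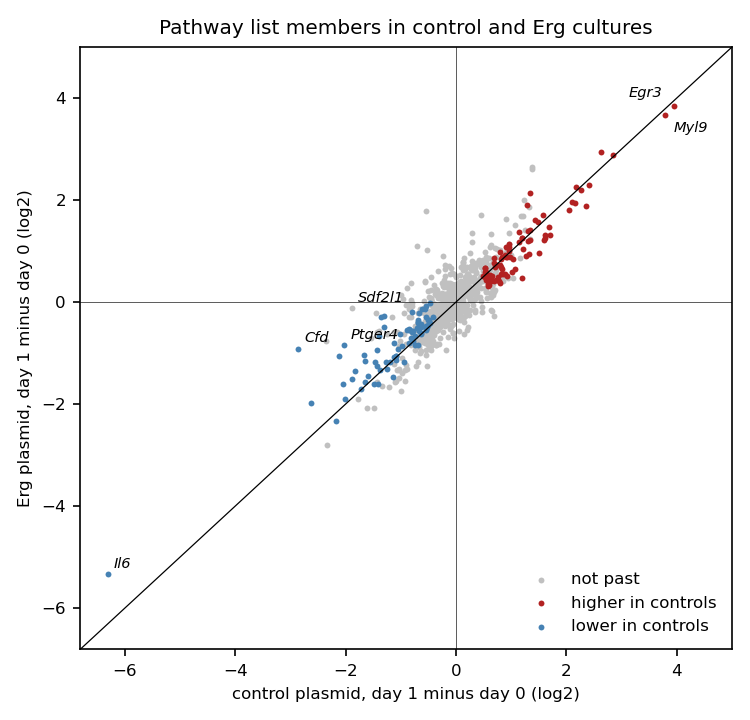
Day 1 minus day 0 difference on the log2 scale in control cultures (horizontal axis) and in Erg cultures (vertical axis) for 756 pathway list genes, red and blue where higher and lower past the threshold in the controls, with the line of equal steps. Il6 at -6.31 and -5.33, Myl9 at 3.79 and 3.66 and Egr3 at 3.95 and 3.85 lie near the line, and Sdf2l1 at -1.89 and -0.12 lies off it.

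The genes with the smallest p for that difference all had an adjusted p of 0.974 in limma. Those with the higher value in the controls were Oas2, C430003N24Rik, Kctd12, 6720418B01Rik and 4733401A01Rik, and those with the lower value were Gngt1, Siglec1, Tmsb10, Adig and Fgf8. The actin-binding Tmsb10, for instance, read 12.45 and 12.58, then 10.29 and 10.38 in the controls (difference -2.18) and gave -1.34 in the Erg cultures. Several lists had medians of opposite sign in the 2 kinds of culture. The unfolded protein response had -0.23 in controls and 0.24 in Erg cultures, the secretory pathway -0.12 and 0.34, and glycolysis and hypoxia -0.16 and 0.22. In these 3 lists the Erg median turned to -0.31, -0.14 and -0.15 without Erg day 0 replicate 2 and was 0.64, 0.63 and 0.56 without replicate 1. The contractile list kept its median, at 0.68 with both arrays and 0.65 without either.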

How the data were processed

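Total RNA was hybridised to 8 arrays (Mouse Genome 430 2.0), 2 per group, grouped by the sample labels. The deposited intensities, on the linear scale, were made by the authors with RMA. Per the file's notes this ran in Partek GS 6.6, per the series' design text in dChip (V2005), and the sources do not settle it. The deposited ratio, p-value and q-value columns are the authors' own, from limma per the file's notes. The authors' deposited table gives 17667 probe sets with a q-value under 0.05, 8443 higher and 9224 lower on control day 1, and these include all 8922 called here. Raw images were not used here, and precision is limited by the number of arrays.

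The log2 values of all 45037 probe sets were fitted with limma 3.58.1 (lmFit, eBayes) as 4 group means over 8 arrays, with 4 residual and 2.78 prior degrees of freedom, two-sided, and adjusted by Benjamini-Hochberg. An exact permutation of 2 against 2 arrays cannot go below p = 0.333. SE is limma's. Of the probe sets 37818 carry 1 symbol, 1399 several and 5820 none, and symbols are those of the array's annotation. Of 843 listed symbols 820 were measured, and 23 are not analysed here.

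The members and lists were chosen with earlier results of these data known. Named by rule are the 12 symbols that rose and the 12 that fell most without overlap (unnamed transcripts left out), up to 4 members per list with the smallest p past the threshold, the largest difference each way, 1 member for a role with none past, the 5 smallest p each way for the difference of the steps, and the main regulators. Every other gene named was chosen after its values were seen. Of 141 named genes past the threshold 86 have several probe sets, and in 26 these differ in sign, which is given above for only some of them. The replicate numbers did not pair the control arrays (correlation of deviations 0.009). Promoters are RefSeq's (GRCm38.p6), and a gene with several promoters counts once for each. The fit was tested on simulated data (R 4.3.3, Python 3.11.15). Alternatives are given in the closing section. Some genes are not reported here.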

Additional observations from a re-analysis of the deposited data

Results flagged for a closer look

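The unnamed transcript 6720418B01Rik moved one way on every control array and the other way on every Erg array. Its day step was 0.66 in the controls, from 4.63 and 4.52 to 5.17 and 5.30. In the Erg cultures it was -0.088, from 5.10 and 5.19 to 5.09 and 5.03, so that the days nearly touched. All these values lie below 5.76, the upper limit of the dimmest of the 4 bins of mean level. The test of the difference gave an adjusted p of 0.974 in limma. Over all symbols 150 (0.725%) were opposite in this way.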

How the results depend on the processing

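For control day 1 against day 0, 8922 probe sets passed. A filter on dim probe sets, which tests 22519, gave 5075, and array weights gave 13973. With 1 array left out, the count ran from 366 to 16506. Fits that leave a group with 1 array assume that it varies like the others. The Erg plasmid day step, with 3146, gave 23 in its own 4 arrays and 1511 with array weights, and from 105 to 10337 with 1 array left out. The difference of the steps stayed at 0 except without Erg day 0 replicate 1, where it was 356, so that the range is 0 to 356. The cause was not tested. The replicate block, which the numbers do not justify, gave 7110, 2182 and 0. Averaging the probe sets of a symbol reversed Bcl2l2 to -0.26, Cr1l to 0.39, Nfe2l2 to -0.21 and Hnrnpa1 to 0.13. Of 28 pathway lists, 18 kept the sign of their median in all 17 settings. Among the 141 genes past the threshold that the rule names, no other changed sign. Genes named after their values were seen were not run under these settings.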
